A study of Mus musculus with 2 samples.

Results

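The genes of splicing factors were followed through long-read RNA sequencing of mouse adrenal gland. They were taken by name: every gene called Srsf or Hnrnp with a further suffix, with Tra2a, Tra2b, Ddx5, Ddx17, Rbfox1, Rbfox2, Rbfox3, Mbnl1, Mbnl2, Mbnl3, Ptbp1, Ptbp2 and Ptbp3. This gave 44 genes of 18168 with at least 1 read, namely 20 Hnrnp genes, 13 Srsf and Tra2 genes, 9 genes of the Rbfox, Mbnl and Ptbp families, and the pair Ddx5 and Ddx17. Reads of 43 of them were found in replicate 1 and of all 44 in replicate 2. The exception was Rbfox1, with 0 reads in replicate 1, which allows up to 3.99 CPM, and 2 reads in replicate 2. Both libraries came from adrenal gland tissue of male B6CASTF1/J mice aged 25 days, a hybrid of C57BL/6 and CAST/EiJ, and form 1 group with no treatment and no mutation named in the labels. The labels leave unclear whether the libraries came from separate animals, since the tissue descriptions name different males while the library descriptions and the donor record name the same, so the spread between them may be technical. RNA input is given for replicate 2 alone.

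As background, SR proteins (Srsf and Tra2) bind exons through RNA recognition motifs and recruit the splicing machinery with their arginine-serine domains, while hnRNP proteins coat nascent RNA and often repress nearby exons. Many of these genes limit their own protein by including a poison exon, which carries a stop codon in frame and sends the transcript to nonsense-mediated decay (NMD). Ddx5 and Ddx17 are RNA helicases that unwind splice sites and join transcription complexes, and the Rbfox, Mbnl and Ptbp proteins set exon choice by tissue and stage.

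The quantity deposited for each library is a number of reads per transcript model. Replicate 1 held 752432 reads in annotated mouse genes and replicate 2 held 1210671. The splicing factor genes took 6227 of these reads in replicate 1 (0.828%) and 7365 in replicate 2 (0.608%), in 747 and 788 models. Levels are reads per 1000000 gene reads (CPM), without length correction because each long read was counted once. Any merging of PCR copies is not stated, so a read need not be a separate molecule. The libraries stood apart in other tissues: 6 liver markers had 5.32 CPM together in replicate 1, against 43821 CPM in replicate 2 (4 and 0 of the 6 were at 0 reads, including Apoa1 and Ahsg in replicate 1), and 8 skeletal muscle markers to 3968 CPM and 0.826 CPM (0 and 7 of the 8 at 0). Markers of the labelled tissue were present: 5 adrenal cortex markers had 60880 CPM in replicate 1 against 24697 CPM in replicate 2, and 5 medulla markers had 9412 and 7114 CPM, each gene with reads in both libraries. Endothelial markers had 536 and 439 CPM over 4 genes (1 called higher in replicate 1), neuron markers 63.8 and 39.6 CPM over 6 (1 of 3 tested called higher in replicate 1) and macrophage markers 251 and 259 CPM over 3 (0 called). The part of the liver and muscle RNA in any difference below was not tested. Tests compare 2 libraries, not conditions, by a two-sided Fisher's exact test, with p-values adjusted after Benjamini and Hochberg over every feature measured, and intervals (95% Clopper-Pearson) and standard errors cover counting error only.

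Poison exons were read in 7 of the 13 SR and Tra2 genes, at a few percent in most of them and at the highest level in Srsf4. Of the other genes, Tra2a had 0 including reads. Srsf1, Srsf2, Srsf5, Srsf10 and Srsf12 have no such exon by the rule used here, so they could not be counted. An exon was counted as poison-type where GENCODE places it in at least 1 transcript of the NMD class and in no protein-coding one. This class does not require a stop codon inside the exon itself. The splicing factor genes held 21 poison-type exons in 14 genes, and 17 of them had at least 1 including read. Of the 21 exons, 16 in 10 genes had at least 20 informative reads in each library. All 21, with those below this minimum, were included in 128 of 1530 reads in replicate 1 (8.37%, 7.03 to 9.87). In replicate 2 they were included in 144 of 1952 (7.38%, 6.26 to 8.63). Exons of a gene share reads, so these sums count some reads more than once. Transcripts already removed by NMD give no reads, so values here and below need not equal how often an exon was spliced in. Over the 611 poison-type exons of all genes that passed the same minimum the median inclusion was 0%, against 4.31% over the 16. The sequences below are mm10 exons on the coding strand, 5′ to 3′, from the GENCODE M21 transcripts, each printed from its first base to the annotated stop codon that makes it a poison exon, which stands in capitals. They are shown because the stop is the feature that the inclusion values concern. The positions in the genome are those of the whole exon: Srsf3 on the plus strand at chr17:29039454-29039909, Srsf4 plus at chr4:131884276-131884482, Srsf6 plus at chr2:162932815-162933082, Srsf7 minus at chr17:80204622-80205081, Srsf11 minus at chr3:158023243-158023359, Tra2b minus at chr16:22258986-22259261, Hnrnpl plus at chr7:28817335-28817404 and Hnrnpll minus at chr17:80044940-80045022.
Srsf3 456-nt exon: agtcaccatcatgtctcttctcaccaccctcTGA
Srsf4 207-nt exon: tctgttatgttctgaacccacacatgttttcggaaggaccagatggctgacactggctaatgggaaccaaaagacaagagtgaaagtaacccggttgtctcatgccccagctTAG
Srsf6 268-nt exon: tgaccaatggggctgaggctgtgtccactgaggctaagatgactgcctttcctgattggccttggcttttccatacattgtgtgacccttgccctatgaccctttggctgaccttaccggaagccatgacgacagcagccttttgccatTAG
Srsf7 460-nt exon: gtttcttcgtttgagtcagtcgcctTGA
Srsf11 117-nt exon: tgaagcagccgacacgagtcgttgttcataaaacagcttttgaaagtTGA
Tra2b 276-nt exon: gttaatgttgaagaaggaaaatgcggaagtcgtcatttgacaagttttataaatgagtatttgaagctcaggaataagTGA
Hnrnpl 70-nt exon: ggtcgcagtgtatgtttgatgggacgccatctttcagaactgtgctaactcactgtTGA
Hnrnpll 83-nt exon: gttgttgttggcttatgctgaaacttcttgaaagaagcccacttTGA

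The stop codon lay 31 bases into the Srsf3 exon and 25 bases into that of Srsf7, and 149 bases into that of Srsf6. It was TGA in 6 of the 8 and TAG in the Srsf4 and Srsf6 exons. Srsf4, which encodes the SR protein SRp75, had the highest use of poison-type exons among the SR genes. Its 207-nt exon was included in 23 of 112 reads in replicate 1 (20.5%, 13.5 to 29.2) and 26 of 150 in replicate 2 (17.3%, 11.6 to 24.4). The next exon of the same intron, of 184 nt, was included in 23 of 112 reads and 23 of 146. The last, of 174 nt, was included in 22 of 112 and 29 of 152. No annotated stop codon was found inside either of these later exons. All 3 exons thus stood near the same fraction in both libraries, while a 198-nt version that overlaps the last had 1 read in replicate 1 and 0 of 123 in replicate 2. Over both libraries the poison-type exons were included in 7.81% of reads, in 5.03% without Srsf4, and in 2.02% where annotated models alone were counted.

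The other SR genes included their poison exons less than the Srsf4 values in both libraries, although the intervals are wide. Srsf3, an SR protein linked to cell proliferation, included its 456-nt exon in 4 of 108 reads in replicate 1 (3.70%) and 8 of 131 in replicate 2 (6.11%). For Srsf6 the 268-nt exon was in 3 of 160 reads (1.88%) and 5 of 119 (4.20%). Srsf7, the SR protein with a zinc knuckle that also acts in mRNA export, included its 460-nt exon in 0 of 34 reads in replicate 1, an upper bound of 10.3%, and in 3 of 66 in replicate 2 (4.55%). Srsf11 used a 117-nt exon in 8 of 88 reads (9.09%) and 4 of 36 (11.1%), and a 109-nt exon in 2 of 87 and 1 of 35. Srsf9 had 2 including reads per library for each of its exons, of 358 nt and 90 nt. No annotated stop codon was found inside the 90-nt exon. Tra2b, which activates exons together with SR proteins, gave 1 of 13 reads in replicate 1 and 3 of 73 in replicate 2 for its 276-nt exon, below the minimum in replicate 1. A 397-nt form of that exon had 0 of 12 and 1 of 71 reads, and the 306-nt exon of Tra2a had 0 of 5 and 0 of 19.

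Among the hnRNP genes the range was wider. Hnrnpdl, an RNA-binding relative of Hnrnpd, included its 105-nt exon in 15 of 22 reads in replicate 1 (68.2%, 45.1 to 86.1) and 20 of 36 in replicate 2 (55.6%, 38.1 to 72.1), the highest value of any poison-type exon measured in the 44 genes. Reads that retain the neighbouring introns of Hnrnpdl are not informative for this exon, which leaves few. No annotated stop codon was found inside it, nor inside the 107-nt exon of Hnrnpd given below. Hnrnpll, a paralog of Hnrnpl known for regulating CD45 exons in lymphocytes, included its 83-nt exon in 9 of 70 reads (12.9%) and 10 of 105 (9.52%). Hnrnpl, which binds CA repeats, included its 70-nt exon in 5 of 129 reads (3.88%) and 3 of 90 (3.33%). In Hnrnpd, which encodes AUF1, a 107-nt exon was in 8 of 85 reads in replicate 1 (9.41%) and 4 of 157 in replicate 2 (2.55%), a difference at an unadjusted p of 0.0279 that was lost on adjustment (adjusted p = 1, Fisher's exact test). The overlapping 71-nt form of that exon, the 51-nt exon of Hnrnpu and the 1711-nt exon of Hnrnpa1 had 0 including reads in both libraries.

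**Figure D1:**
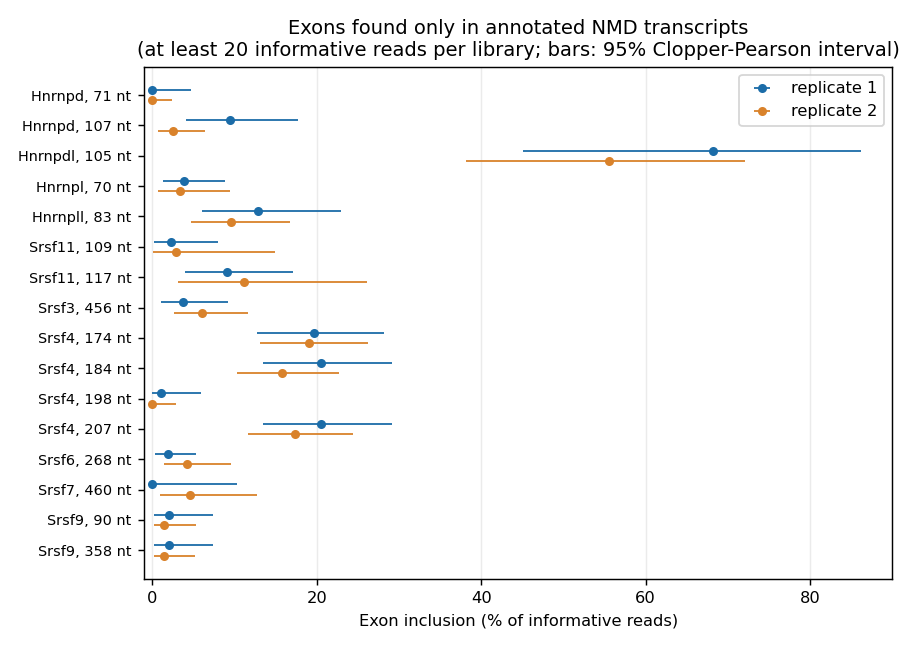
Inclusion of the 16 poison-type exons with at least 20 informative reads in each library, as a percentage of informative reads (x axis), with 1 row per exon; points are replicate 1 and replicate 2 and bars are 95% Clopper-Pearson intervals. The 105-nt exon of Hnrnpdl stands at 68.2% and 55.6%, the Srsf4 exons of 207, 184 and 174 nt between 15.8% and 20.5%, and the intervals of the libraries overlap at every exon.

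The reverse arrangement, in which skipping an exon gives an NMD transcript, was seen in the Ptbp genes. Ptbp1 encodes a repressor of exons outside neurons, and its protein is known to cause skipping of a 34-nt exon in its own RNA and in that of its neuronal paralog Ptbp2. Both exons are printed whole, without capitals, because they are paralogous: 26 of 34 bases (76.5%) are identical without gaps. They lie at chr10:79862014-79862047 on the plus strand and chr3:119724612-119724645 on the minus strand.
Ptbp1 34-nt exon: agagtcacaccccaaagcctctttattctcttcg
Ptbp2 34-nt exon: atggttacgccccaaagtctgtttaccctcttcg

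The Ptbp1 exon was included in 91 of 99 reads in replicate 1 (91.9%, 84.7 to 96.4) and 35 of 37 in replicate 2 (94.6%, 81.8 to 99.3). The Ptbp2 exon, below the minimum and named for its likeness, was included in 8 of 16 reads (50%, 24.7 to 75.3) and 9 of 14 (64.3%, 35.1 to 87.2). In each library the Ptbp2 value lay below that of Ptbp1, with intervals apart in replicate 1 and overlapping in replicate 2. Hnrnpk, a KH-domain protein that binds C-rich RNA, included the 44-nt exon whose absence gives an NMD transcript in 611 of 624 reads (97.9%) and 533 of 545 (97.8%). The 9 such exons of Ddx5 were included in at least 99.8% of reads in both libraries.

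Ddx5 was the gene in which transcripts of the NMD class were most abundant. Its leading structure was Ddx5-208, annotated as an NMD transcript, which keeps the 1265-nt intron at chr11:106782694-106783958 (minus strand). In the annotation the reading frame of this transcript meets a TAG stop codon 2 bases into that intron. Ddx5-208 had 465 of 1059 reads in replicate 1 (43.9%, 40.9 to 47.0) and 353 of 1106 in replicate 2 (31.9%, 29.2 to 34.8). The protein-coding Ddx5-201, which differs from it by removal of that intron, had 332 reads (31.4%) and 465 reads (42.0%). The order of the pair was therefore opposite in the libraries.

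Of reads that removed exactly this intron or spanned it with an exon, 607 of 976 retained it in replicate 1 (62.2%, 59.1 to 65.2) and 476 of 1004 in replicate 2 (47.4%, 44.3 to 50.6; adjusted p = 1.50e-08, Fisher's exact test). The intervals do not overlap. This comparison of known retained introns was added after the data were seen. It called 1 intron of 62 measured in 22 splicing factor genes, and 1.29% of 4422 introns over all genes. The median retention was 13.6% over the 62 introns and 2.49% over all introns tested. Of the 62, 27 overlap another in the same gene and so share reads, and 10 were spliced in no read.

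Other introns were partly retained, and their differences did not pass the threshold. Srsf5, an SR protein also called SRp40 and described as an insulin-induced gene, kept its 1229-nt intron in 101 of 137 reads in replicate 1 (73.7%, 65.5 to 80.9) and 173 of 288 in replicate 2 (60.1%, 54.2 to 65.8; adjusted p = 0.254). Srsf7 kept the 874-nt intron that contains its poison exon in 39 of 73 reads (53.4%) and 31 of 94 (33.0%; adjusted p = 0.349). Srsf2, also called SC35, kept its 1059-nt intron in 57 of 249 reads (22.9%) and 50 of 332 (15.1%; adjusted p = 0.460). These 3 introns, like that of Ddx5, had the higher value in replicate 1. In Srsf1, the founding SR protein ASF/SF2, an 881-nt intron was kept in 49 of 88 reads (55.7%) and 70 of 125 (56.0%). In Hnrnpa2b1 a 156-nt intron was kept in 69 of 355 reads (19.4%) and 87 of 486 (17.9%). In all, 8 of the 62 introns had an unadjusted p under 0.05, beside 277 of 4422 over all genes. Of the 8, 7 were higher and 1 lower in replicate 1. The overlapping Srsf7 introns of 874 and 180 nt, which share reads, are both among the 7. The direction over all genes was not counted.

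Reads assigned to annotated NMD or retained-intron transcripts made up 575 of 6227 reads of the splicing factor genes in replicate 1 (9.23%, 8.53 to 9.98) and 497 of 7365 in replicate 2 (6.75%, 6.19 to 7.35). Over all genes the values were 1.10% and 1.02%. Ddx5 held most of them, and without it the share was 2.13% (1.75 to 2.56) in replicate 1 and 2.30% (1.94 to 2.70) in replicate 2, still above that of all genes in both. Next after Ddx5-208 were Srsf7-207 (13 and 18 reads), Hnrnpdl-201 (11 and 16), Hnrnpa1-203 (11 and 16) and Srsf5-212 (8 and 14). Transcripts with poison exons that also carry a new junction are not in this share, since it holds annotated structures.

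Alternative exons of protein-coding transcripts gave mixed structures in many hnRNP genes, with close values in the libraries. Of 139 known alternative exons in 39 splicing factor genes, 88 in 28 genes had at least 20 informative reads in each library, and 31 of these were between 5% and 95% included. None of the 88 was called (Fisher's exact test), and 0.153% of 7190 exons over all genes were called. An unadjusted p under 0.05 was found for 2 of the 88 and for 120 of the 7190. Among exons that some protein-coding transcripts include and others skip, 22 of 43 lay between 5% and 95% in these genes. Over all genes the value was 21.3% of 4133. Such an exon need not be coding itself. No annotated protein-coding transcript holds the 136-nt exon of Hnrnpa2b1 or the 45-nt exon of Hnrnph2, given below, wholly inside its coding sequence. The median inclusion of the 43 was 39.2%, against 98.4% over all genes.

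Several of these exons are printed because the proteins they separate are known by name or because they have a match in a paralog. The 36-nt exon of Hnrnpa2b1 (chr6:51467391-51467426, minus strand) separates hnRNP B1 from A2. The 120-nt exon of the same gene (chr6:51464428-51464547, minus) encodes a stretch of the glycine-rich tail. The 57-nt exon of Hnrnpd (chr5:99976534-99976590, minus) adds a segment near the amino end of AUF1. The 54-nt exons of Mbnl1 (chr3:60614683-60614736, plus) and Mbnl2 (chr14:120395712-120395765, plus) are paralogous, are known to affect nuclear localization, and match at 46 of 54 bases (85.2%). All are whole exons, 5′ to 3′, without capitals.
Hnrnpa2b1 36-nt exon: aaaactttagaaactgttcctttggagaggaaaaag
Hnrnpa2b1 120-nt exon: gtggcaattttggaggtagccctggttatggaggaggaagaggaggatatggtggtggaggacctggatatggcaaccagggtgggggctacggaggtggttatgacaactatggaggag
Hnrnpd 57-nt exon: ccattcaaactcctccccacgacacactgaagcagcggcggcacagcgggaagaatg
Mbnl1 54-nt exon: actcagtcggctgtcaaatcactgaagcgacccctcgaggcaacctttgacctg
Mbnl2 54-nt exon: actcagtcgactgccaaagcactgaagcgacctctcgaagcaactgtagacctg

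The B1 exon of Hnrnpa2b1 was included in 35 of 322 reads in replicate 1 (10.9%, 7.69 to 14.8) and 73 of 537 in replicate 2 (13.6%, 10.8 to 16.8), so that most reads were of the A2 form. The glycine-tail exon of the same gene was included in 296 of 348 reads (85.1%) and 506 of 598 (84.6%). A 136-nt exon of Hnrnpa2b1 was in 38 of 77 reads in replicate 1 (49.4%) and 45 of 135 in replicate 2 (33.3%; unadjusted p = 0.0280, adjusted p = 1, Fisher's exact test), and this 16.0-point difference was the largest among the 88 exons.

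AUF1 exists in isoforms made by its pair of cassette exons. In Hnrnpd the 57-nt exon was included in 47 of 103 reads (45.6%) and 80 of 171 (46.8%). The 147-nt exon, near the carboxyl end, was in 64 of 105 reads (61.0%) and 104 of 173 (60.1%). Both stayed within 1.15 points between the libraries. Hnrnpab, a relative of Hnrnpd, included its 141-nt exon in 50 of 126 reads (39.7%) and 81 of 192 (42.2%). Hnrnpk included a 72-nt exon in 586 of 624 reads (93.9%) and 510 of 547 (93.2%), and Hnrnpm, whose protein binds GU-rich introns, a 54-nt exon in 19 of 21 reads in each library. In Hnrnph2 a 45-nt exon was in 40 of 130 reads (30.8%) and 53 of 123 (43.1%).

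For the muscleblind genes, whose proteins bind YGCY elements and switch fetal to adult exon patterns, the 54-nt exons were mostly skipped. Mbnl1 included it in 9 of 95 reads in replicate 1 (9.47%, 4.42 to 17.2) and 5 of 85 in replicate 2 (5.88%, 1.94 to 13.2). Mbnl2 had 19 of 108 reads (17.6%, 10.9 to 26.1) and 14 of 86 (16.3%, 9.20 to 25.8). The Mbnl2 value was higher in each library, with overlapping intervals. Further along Mbnl1 a 36-nt exon was included in 63 of 119 reads (52.9%) and 64 of 133 (48.1%), and a 95-nt exon in 77 of 121 (63.6%) and 73 of 133 (54.9%). Ptbp1 included the 78-nt exon that lengthens the linker between RNA recognition motifs in 57 of 95 reads (60.0%) and 20 of 32 (62.5%). Skeletal muscle markers had 3968 CPM in replicate 1 and 0.826 CPM in replicate 2, and none of these exons was called.

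**Figure D2:**
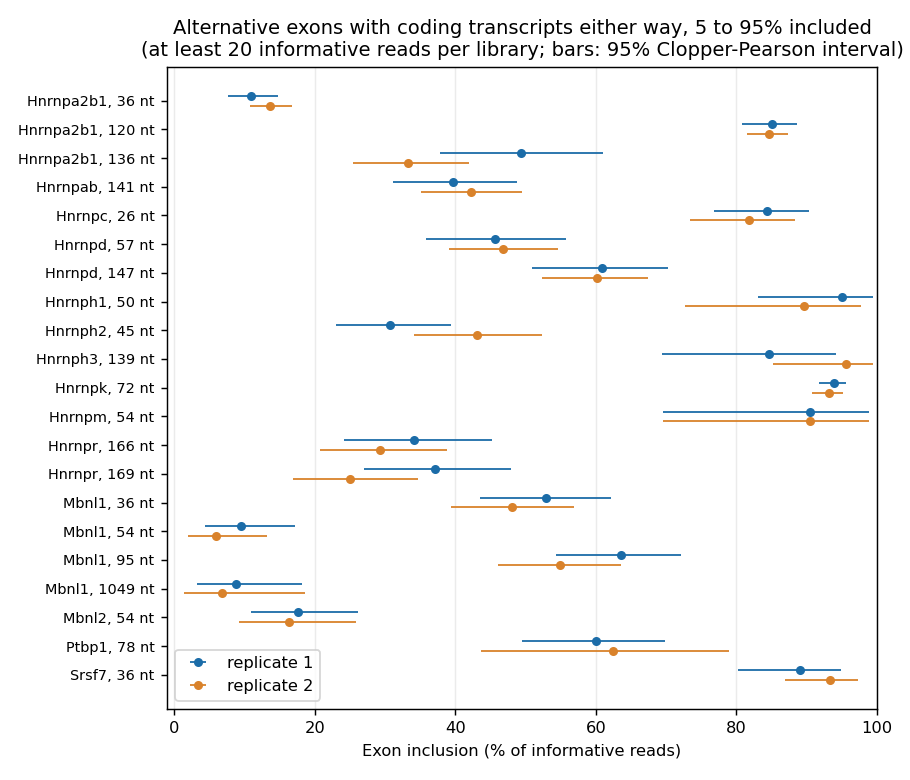
Inclusion of 21 of the 22 alternative exons that protein-coding transcripts both include and skip and that lie between 5% and 95% included. Values are percentages of informative reads (x axis), with 1 row per exon. Points are replicate 1 and replicate 2 and bars are 95% Clopper-Pearson intervals. Not all of these exons lie wholly inside the coding sequence. The 57-nt and 147-nt exons of Hnrnpd nearly coincide (45.6% and 46.8%, 61.0% and 60.1%), and the 136-nt exon of Hnrnpa2b1 is farthest apart (49.4% and 33.3%).

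Splicing factor genes were split over many structures. Reads were grouped by intron chain, the ordered set of introns of a read, with single-exon reads of a gene as 1 chain. In the 32 genes that had 20 reads or more in both libraries the leading chain held a median of 37.8% of the gene's reads over both libraries, and it held under 50% in 22 of 32 (68.8%). Over the 5749 genes with the same minimum the median was 73.4%, and 23.1% were under 50%. The lowest share was that of Mbnl1 (10.4%), followed by Hnrnph1 (20.3%) and Srsf7 (20.6%), and the highest were Srsf9 (90.5%) and Hnrnpu (90.3%).

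Hnrnpu, also called scaffold attachment factor A, had 480 of 517 reads in Hnrnpu-201 in replicate 1 (92.8%) and 474 of 540 in replicate 2 (87.8%). At the other end Mbnl1 had 17 of 130 reads (13.1%) and 12 of 150 (8.00%) in its leading chain, which is no annotated transcript. Srsf7 had 13 of 85 (15.3%) and 27 of 109 (24.8%) in the protein-coding Srsf7-201. Single-exon reads that the authors class as genomic led Ddx17 with 24 of 27 reads (88.9%) and 20 of 31 (64.5%). The leading chain of Hnrnpf, whose protein binds G tracts, and that of Hnrnpm were incomplete matches to annotated transcripts.

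The share of the leading chain was called different between the libraries in 4 of the 32 genes, beside 12.4% of all 5612 genes tested, so that the count is near the background. Ddx5 is given above (adjusted p = 4.76e-07, Fisher's exact test). Ptbp1 had 46 of 105 reads in Ptbp1-216 in replicate 1 (43.8%) and 13 of 66 in replicate 2 (19.7%; adjusted p = 0.0173). Srsf11 had 47 of 103 reads (45.6%) and 10 of 48 (20.8%; adjusted p = 0.0350) in Srsf11-204, and Hnrnpf 141 of 455 (31.0%) and 158 of 697 (22.7%; adjusted p = 0.0207). All 4 were higher in replicate 1. With multi-exon chains alone 2 were called, and without incomplete matches 1.

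**Figure D3:**
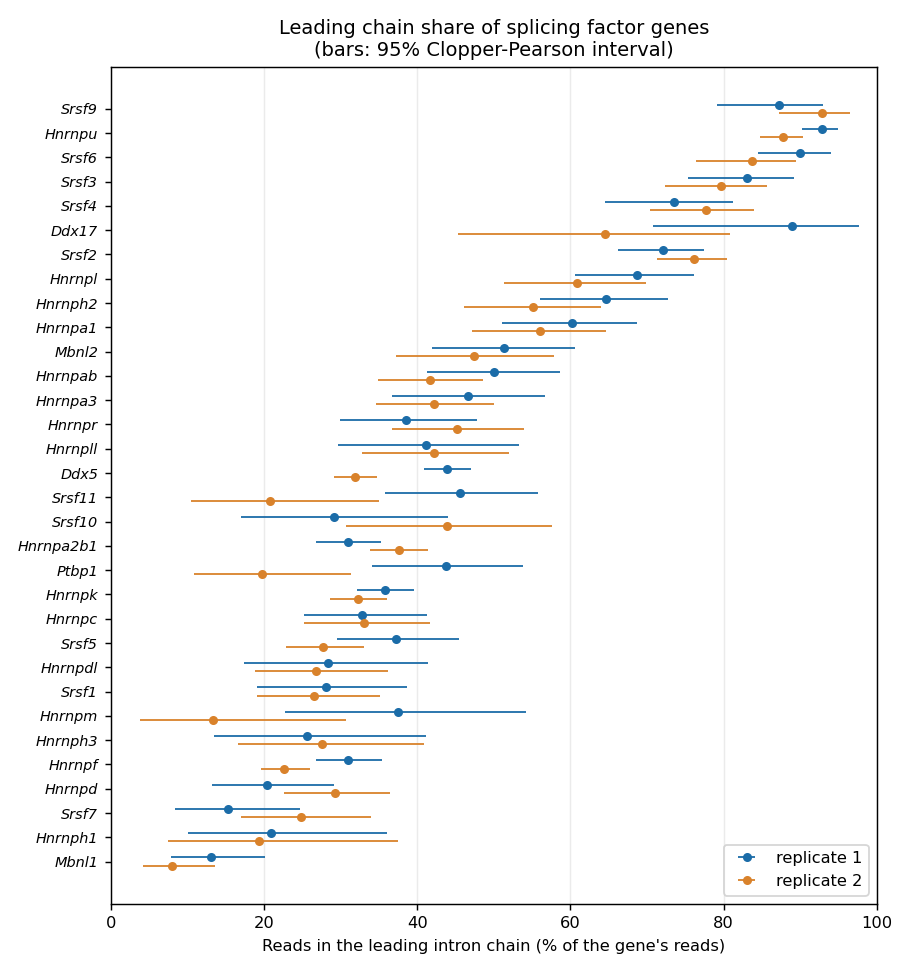
Share of reads in the leading intron chain (x axis, percent of the gene's reads) for the 32 splicing factor genes that had 20 reads or more in both libraries, ordered by the share over both libraries; points are replicate 1 and replicate 2 and bars are 95% Clopper-Pearson intervals. Srsf9 (87.3% and 92.9%) and Hnrnpu (92.8% and 87.8%) are at the top and Mbnl1 (13.1% and 8.00%) at the bottom. The intervals of the libraries do not overlap for Ddx5, Hnrnpf, Ptbp1 and Srsf11.

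The number of structures was also high. With chains of at least 2 reads counted over both libraries, the 32 genes had a median of 12 (3 to 50), against 6 over the 5749 genes, although they also had more reads (a median of 262.5 against 129). When 100 reads were drawn from each gene, 29 splicing factor genes had a median of 7 chains with at least 2 reads (3 to 16), against 4 over 3611 genes. Hnrnpa2b1 had the most, 50, followed by Ddx5 with 40, Hnrnpk with 27 and Mbnl1 with 26. At 100 reads Mbnl1 led with 16, before Hnrnpa2b1 with 13, and Hnrnph2, Hnrnpu, Srsf4 and Srsf9 were lowest with 3.

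**Figure D4:**
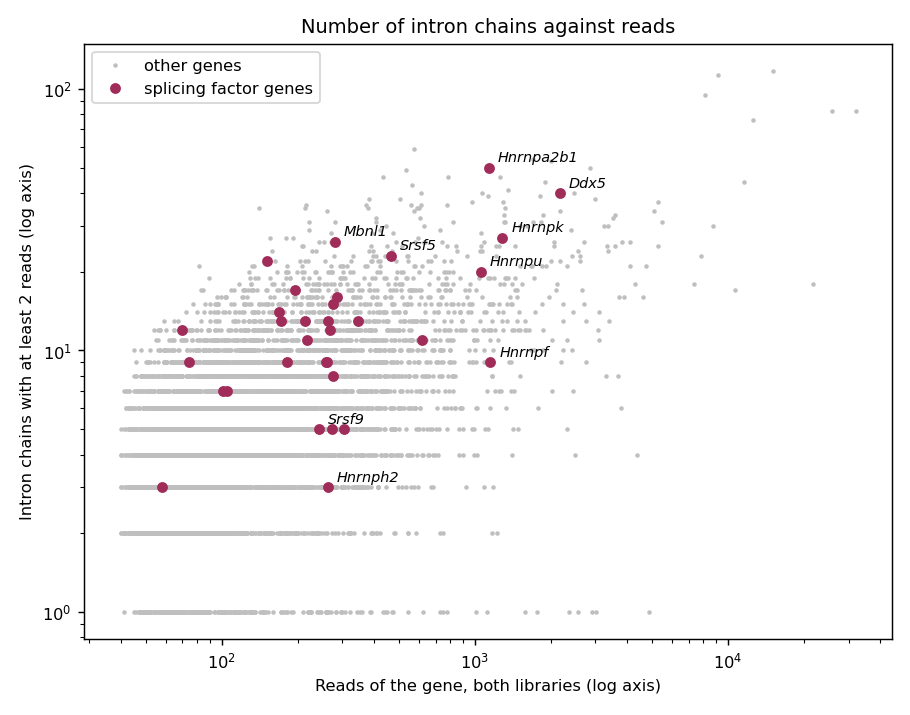
Number of intron chains with at least 2 reads (y axis, log scale) against reads of the gene over both libraries (x axis, log scale) for the 32 splicing factor genes and other genes that had 20 reads or more in both libraries; each point is a gene. Hnrnpa2b1 (50 chains), Ddx5 (40) and Mbnl1 (26) lie near the upper edge at their depth, and Hnrnph2 (3) near the lower edge.

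Among structures outside the annotation, new combinations of known splice sites (the class NIC) took a larger fraction of reads than over all genes. They made up 19.6% of splicing factor reads in replicate 1 (1221 reads) and 15.9% in replicate 2 (1172 reads), against 5.66% and 4.27% over all genes. Structures with a new splice site (NNC) were at 4.22% (3.74 to 4.75) and 4.37% (3.92 to 4.86), against 4.14% and 3.24%. The NNC interval held the value of all genes in replicate 1 and lay above it in replicate 2. Of 586 new chains in these genes, 116 were found in both libraries, and 65 in 24 genes had at least 2 reads in each. Hnrnpk alone held 11 of the 65, with 586 of their 1138 reads in replicate 1 and 513 of 1150 in replicate 2. The NIC fraction without Hnrnpk was not computed. The leading chain of Hnrnpk, with 235 of 657 reads (35.8%) and 202 of 627 (32.2%), was a NIC structure. In it 13 of 14 introns are annotated introns of the gene. The other 1 stands in place of 2 introns of the nearest annotated transcript, of 78 and 207 nt, which flank a short exon. The 78-nt intron was spliced exactly in 0 reads in replicate 1 and 2 in replicate 2, and the 207-nt intron in 0 and 0. The part of read alignment in this difference was not tested. Srsf5 was led by a NIC chain with 57 and 87 reads, which equals an annotated transcript but for 1 retained intron, the 1229-nt intron described above. Mbnl2 was led by a NIC chain with 60 of 117 reads (51.3%) and 46 of 97 (47.4%), all 6 of its introns being annotated.

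Levels were highest for Ddx5 and a few hnRNP genes. Of the 41 genes with at least 10 reads, 17 were higher and 4 lower in replicate 1, and 20 were not called. Over 11382 genes 36.8% were called, 25.3% higher and 11.5% lower in replicate 1, and the median log2 ratio of replicate 1 to replicate 2 was 0.44 over the 41 genes and 0.34 over all genes. The split depends on the scaling: TMM factors, which move the median of all genes to -0.01, gave 10 higher and 5 lower, and DESeq2 size factors, which move it to -0.07, gave 9 and 6. Under both scalings the calls of Hnrnpa1, Hnrnpa2b1, Hnrnpc, Hnrnph1, Hnrnpm, Hnrnpr and Mbnl1 were lost, and under size factors also that of Hnrnph2. An assumed coefficient of variation of 0.2 between libraries left Hnrnpul1, Srsf11 and Ptbp1 higher and Hnrnpa0 and Tra2b lower, so that the calls of Ddx5, Hnrnpk and the other abundant genes rest on counting error alone. In bulk tissue fewer cells of a type and less RNA per cell cannot be told apart.

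Ddx5 (chr11:106780355-106789185, minus strand) had 1407 CPM in replicate 1, against 914 CPM in replicate 2, a mean of 1160.5 ± 349 CPM (SD, n = 2) and a log2 ratio of 0.62 ± 0.06 (SE; adjusted p = 4.24e-22, Fisher's exact test). It was the most abundant of the 44 genes in both libraries. Its paralog Ddx17 was far lower, with 35.9 and 25.6 CPM, and was not called (log2 ratio 0.49, adjusted p = 0.364). Single-exon genomic reads made up 24 of its 27 reads and 20 of its 31 reads, and without such reads the log2 ratio was -1.05 (adjusted p = 0.409), also not called.

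The 20 hnRNP genes had 4590 CPM together in replicate 1, against 3406 CPM in replicate 2. In replicate 1, 11 were higher and 1 lower, beside 25.3% and 11.5% of all genes tested, and 8 were not called. Hnrnpk led with 873 and 518 CPM (log2 ratio 0.75 ± 0.08, adjusted p = 2.56e-19, Fisher's exact test). Hnrnpu had 687 and 446 CPM (0.62 ± 0.09, adjusted p = 3.94e-11). Hnrnpa2b1 had 641 and 541 CPM and Hnrnpf 605 and 576 CPM. In both libraries these 4 hnRNP genes stood above the other 16. The direction of the last pair depended on the scaling: Hnrnpa2b1 was called higher in replicate 1 (log2 ratio 0.24) and stood at -0.10 with TMM, while Hnrnpf was not called (0.07) and was lower at -0.28 with TMM (adjusted p = 0.00635).

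A second tier of hnRNP genes lay between 95 and 195 CPM in both libraries. Hnrnpl had 195 and 95.0 CPM, the largest ratio of this tier (log2 1.04 ± 0.18, adjusted p = 7.42e-08, Fisher's exact test). Hnrnpc, a U-tract binding protein, had 186 and 112 CPM, and Hnrnph2 had 181 and 105 CPM. Hnrnpa1 had 170 and 109 CPM and Hnrnpr 162 and 113 CPM. All 5 were called higher in replicate 1. Hnrnpab (181 and 173 CPM), Hnrnpd (144 and 147 CPM) and Hnrnpa3 (137 and 137 CPM) were not called. Hnrnpa1 and Hnrnpa3 have many near-identical processed pseudogenes, Hnrnpf, Hnrnph1 and Hnrnph2 are alike in sequence, and reads shared with those copies would make each of these levels uncertain. The widest ratios, given after their values were seen, were at low counts: Hnrnpul1 had 53 and 10 reads (70.4 and 8.26 CPM), and the intronless Hnrnpa0 had 3 and 45 reads (3.99 and 37.2 CPM).

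The 13 SR and Tra2 genes reached 1696 CPM together in replicate 1, against 1426 CPM in replicate 2. Of 12 tested, 2 were higher, 3 lower and 7 not called. Srsf2 had 347 and 297 CPM, Srsf3 165 and 126 CPM, Srsf4 155 and 130 CPM and Srsf9 136 and 116 CPM, and none of these 4 was called. Srsf6 was higher in replicate 1, with 226 and 112 CPM (log2 ratio 1.02 ± 0.17, adjusted p = 9.89e-09, Fisher's exact test). Srsf5 went the other way, with 203 and 259 CPM (-0.35 ± 0.14, adjusted p = 0.0380). The remaining calls, given after their values were seen, were Srsf11, higher with 137 and 39.6 CPM, and both Tra2 genes, lower with 16 and 91 reads for Tra2b (21.3 and 75.2 CPM) and 7 and 34 reads for Tra2a (9.30 and 28.1 CPM). Srsf12 had 1 and 2 reads.

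Of the regulators with tissue-specific use, 7 of 9 could be tested and 3 were higher in replicate 1, beside 25.3% of all genes tested. Mbnl1 had 173 and 124 CPM (log2 ratio 0.48 ± 0.17, adjusted p = 0.0215, Fisher's exact test), Mbnl2 155 and 80.1 CPM, and Ptbp1 140 and 54.5 CPM. The neuronal members were low: Ptbp2 had 21.3 and 13.2 CPM and Rbfox3, known as the neuronal nuclear antigen NeuN, 18.6 and 8.26 CPM. Rbfox2 had 22.6 and 19.8 CPM, Ptbp3 14.6 and 9.91 CPM, and Mbnl3 1 read in each library. Mbnl1 and Mbnl2 are also expressed in skeletal muscle, whose markers were at 3968 CPM in replicate 1 against 0.826 CPM in replicate 2, and the part of that RNA in their levels was not tested.

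**Figure D5:**
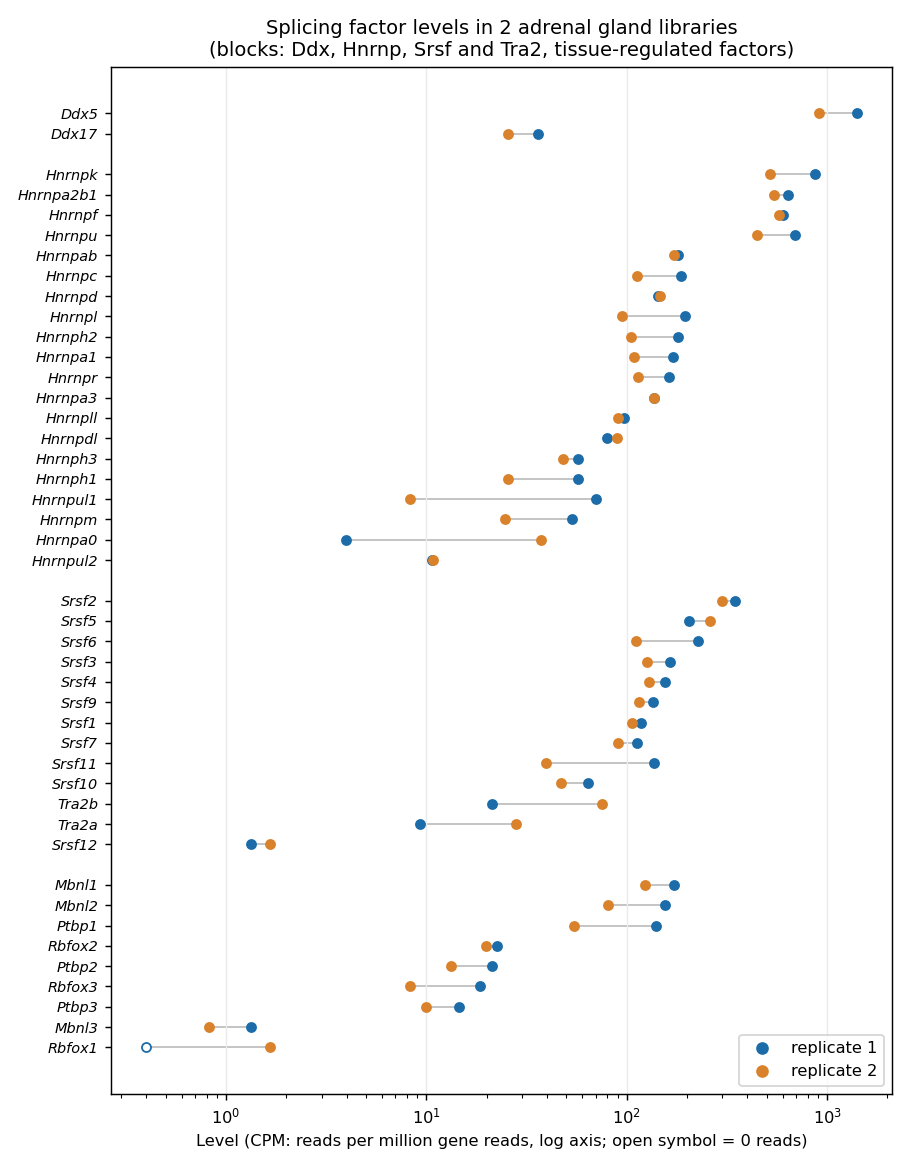
Level of the 44 splicing factor genes in reads per 1000000 gene reads (x axis, log scale), in 4 blocks by family and ordered by mean level; points are replicate 1 and replicate 2, and an open symbol marks 0 reads. Ddx5 stands highest (1407 and 914 CPM), Hnrnpk, Hnrnpa2b1, Hnrnpf and Hnrnpu follow between 446 and 873 CPM, and Hnrnpul1 (70.4 and 8.26 CPM), Hnrnpa0 (3.99 and 37.2 CPM) and Tra2b (21.3 and 75.2 CPM) have the widest gaps.

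Other genes of the splicing machinery and its regulators were set beside these. In a list of 80 such genes, chosen with earlier results of these data known, 79 had reads and 73 were tested. Of these, 29 were higher and 7 lower in replicate 1, beside 25.3% and 11.5% of all genes tested. The other 37 were not called. Over the 73 the median log2 ratio was 0.48, beside 0.44 for the 41 splicing factor genes and 0.34 for all genes. Their levels added up to 6960 CPM in replicate 1, against 5039 CPM in replicate 2. Its most abundant members were Rbm39, a U2AF-related factor (562 and 292 CPM, higher in replicate 1), Pcbp1, a poly(C)-binding protein (361 and 378 CPM, not called), Ewsr1 (320 and 280 CPM, not called) and Sf3b2, a subunit of the U2 snRNP (376 and 116 CPM, higher in replicate 1).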

How the data were processed

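Count tables and model annotations were used for each library. The authors deposited raw read counts per transcript model, not normalised, with an annotation of the models. Per the file headers, mm10 was the assembly, GENCODE M21 the annotation, and the attribute names are those of TALON. The aligner and any merging of PCR copies are not stated in the labels or headers used here. Total reads were 793999 in replicate 1 and 1290342 in replicate 2, and spike-ins (1.39% and 1.33%) and reads outside annotated genes (30509 and 62532) were left out of the totals.

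Genes were taken by name, and the members and lists were chosen with earlier results of these data known. Counts were summed per gene and scaled to 1000000 gene reads. Models with the same strand and introns were taken as the same chain in both libraries. An exon was informative where a read held both of its splice sites or an intron spanning it. For introns, a read counted as spliced where it held exactly that intron and as retained where an exon spanned it. Reads with any other intron there, such as a longer one around it, were left out. The two-sided Fisher's exact test was used, adjusted after Benjamini and Hochberg over all features, with a threshold of 0.05, for genes with at least 10 reads, or 20 reads in each library for chains, exons and introns. Log2 ratios are replicate 1 over replicate 2 with a prior of 0.5 reads. Values per library are given for genes with at least 100 reads in each or with 0 reads, for exons past the minimum, for poison-type exons with an including read, and for the 4 highest genes of a list. Other genes whose levels or leading chains are given, with fewer than 100 reads in a library (among them Ddx17, Srsf12 and the Rbfox, Mbnl and Ptbp genes other than Mbnl1 and Rbfox1), were named after their values were seen. The retained intron comparison was chosen after seeing the data.

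Scripts were tested on simulated data. Python 3.11.15, scipy 1.17.1, pandas 2.3.3, R 4.3.3, edgeR 4.0.16 and DESeq2 1.42.0 were used, the last pair for scaling and the alternative with an assumed variation. A count of 0 allows 3 reads, 3.99 CPM in replicate 1 and 2.48 CPM in replicate 2. Sequences are from the GENCODE M21 transcripts, and 1 coding exon is not reported here. Alternatives covered scaling, read minimums, model classes, thinning of replicate 2 and leaving out each library. Antisense reads were kept out of all levels.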

Additional observations from a re-analysis of the deposited data

Results flagged for a closer look

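Reads on the strand opposite to a splicing factor gene, which the authors class as antisense or intergenic, are not part of the levels above. They were found over 42 of the 44 genes, 375 in replicate 1, against 714 in replicate 2, and 28 and 59 of these had an intron. Genes with at least 20 such reads in each library, above the 3 reads that a count of 0 allows, are given here. Mbnl1 had 49 in replicate 1 and 100 in replicate 2. Ddx5 had 23 and 64, and Hnrnpc 29 and 59. Tra2b had 22 and 41, more than its 16 sense reads in replicate 1 and fewer than its 91 in replicate 2. Srsf10 had 33 and 41, Hnrnpu 26 and 39, and Hnrnph3 41 and 30. These are read counts, not scaled for the greater depth of replicate 2. Which strand these molecules were read from was not tested.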

How the results depend on the processing

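No paired analysis was possible because the libraries form 1 group. The calls of exons (0) and introns (1) were the same with minimums of 10 and 50 reads and in known models alone, and those of exons also with flanking splice sites required. Thinning was run for levels alone. For levels, 21 calls became 5 with an assumed coefficient of variation of 0.2, and 14 to 21 under the other settings. Hnrnpa2b1 changed direction with TMM (log2 -0.10), size factors (-0.16), known models alone (-0.10) and without genes over 10-fold different (-0.11), and Hnrnpf, not called at 0.07, with TMM (-0.28), size factors (-0.33), known models alone (-0.23, not called) and without those genes (-0.29). Those 618 genes, an alternative added after the data were seen, held 1.07% of replicate 1 gene reads and 22.8% of replicate 2 gene reads. Calls of the leading chain share fell to 2 of multi-exon chains and 1 without incomplete matches. The median share was 41.9% with a minimum of 50 reads, 44.9% without incomplete matches and 41.8% to 42.5% leaving out either library. The median number of chains was 27.5 counting single reads, 5 at 5 reads, 7 in 100 drawn reads and 7.5 to 8.5 leaving out either library. Inclusion of poison-type exons was 2.02% in known models alone and 5.03% without Srsf4. The share of NMD and retained-intron reads was 7.89% over both libraries, 12.8% of known models and 2.22% without Ddx5. Except where fewer models, genes or reads are counted by construction, the cause was not tested. Near the minimum of 20 reads an interval is wide, as for the 54-nt exon of Hnrnpm (69.6% to 98.8%).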
